A study of Mus musculus with 6 samples.

Results

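Excitatory neuron and cortical layer genes are described here as 9 genes chosen by symbol: Slc17a7, Neurod2 and Neurod6 for excitatory neurons of cortex and hippocampus at large, Cux2 and Rorb for the upper cortical layers, Fezf2, Bcl11b and Tbr1 for the deep layers, and Slc17a6 for glutamatergic neurons below the cortex. All 9 were found among the 78298 gene identifiers of the deposited table, and all 9 were among the 17391 genes that were tested, those averaging 10 or more normalised counts. The samples were 3 male mice homozygous for the Top2b-low allele and 3 wild-type male mice, 1 library of polyadenylated RNA per mouse from the whole left brain. In the Top2b-low allele, made with CRISPR/Cas9, an auxin-inducible degron tag stands at the 5′ end of the coding sequence of Top2b, the gene of topoisomerase IIβ, and no chemical or drug was given to either group. The labels give an age of 10 weeks and the series text 3.5 months, the strain is not given in the sources used here, and the library of Top2b-low replicate 3 has a name ending in dNdN, where the other Top2b-low names end in Homo. The study compared the genotypes to see how lowered Top2b acts on the transcriptome of the adult brain.

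Excitatory neurons load glutamate into synaptic vesicles with vesicular glutamate transporters. Slc17a7 encodes VGLUT1, used by most neurons of the cortex and hippocampus and by granule cells of the cerebellum, and Slc17a6 encodes VGLUT2, used by most glutamatergic neurons of thalamus, hypothalamus, midbrain and brainstem. Cortical layers are set up by transcription factors that remain expressed in the adult: CUX2 and the nuclear receptor RORβ above, FEZF2, BCL11B (CTIP2) and TBR1 below, with the NeuroD factors in excitatory neurons of all layers. Several of the 9 are also made outside the cortex: Neurod2 is also made by cerebellar granule cells, Rorb by neurons of the thalamus, Bcl11b by striatal projection neurons and hippocampus, and Tbr1 by mitral cells of the olfactory bulb.

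The sequence upstream of 4 of these genes is shown, because the 2 transporter genes had genotype differences of opposite sign and the 2 NeuroD genes encode factors of the family that binds E-boxes. Each is the 250 bases before the annotated start of the gene on its own strand, from RefSeq on GRCm38.p6, an earlier build than the mm39 of the deposited table, and capitals mark E-boxes (CANNTG, which reads the same class on both strands). For Slc17a6, which has 2 annotated starts, the more upstream was taken. The windows are chr7:45163671-45163920 on the plus strand for Slc17a7, chr7:51621580-51621829 on the plus strand for Slc17a6, chr11:98329646-98329895 on the minus strand for Neurod2 and chr6:55681264-55681513 on the minus strand for Neurod6.
Slc17a7: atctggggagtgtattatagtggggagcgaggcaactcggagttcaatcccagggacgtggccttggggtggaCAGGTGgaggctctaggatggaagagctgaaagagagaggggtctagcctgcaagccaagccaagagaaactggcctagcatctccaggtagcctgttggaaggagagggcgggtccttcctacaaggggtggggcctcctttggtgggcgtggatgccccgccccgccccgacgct
Slc17a6: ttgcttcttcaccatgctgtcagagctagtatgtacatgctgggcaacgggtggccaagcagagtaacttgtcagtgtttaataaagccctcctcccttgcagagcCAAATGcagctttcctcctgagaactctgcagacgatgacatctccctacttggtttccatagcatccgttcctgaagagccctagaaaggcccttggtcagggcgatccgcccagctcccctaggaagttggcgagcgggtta
Neurod2: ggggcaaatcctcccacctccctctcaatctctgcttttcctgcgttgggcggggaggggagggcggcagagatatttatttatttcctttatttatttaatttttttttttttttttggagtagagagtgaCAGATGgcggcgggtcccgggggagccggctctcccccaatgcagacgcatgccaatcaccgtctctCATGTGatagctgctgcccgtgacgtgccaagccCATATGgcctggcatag
Neurod6: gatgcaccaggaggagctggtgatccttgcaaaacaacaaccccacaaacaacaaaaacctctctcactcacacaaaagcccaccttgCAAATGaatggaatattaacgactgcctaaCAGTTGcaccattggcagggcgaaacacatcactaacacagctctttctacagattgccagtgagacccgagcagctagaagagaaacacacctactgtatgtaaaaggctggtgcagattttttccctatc
The windows hold 1 E-box in Slc17a7, 1 in Slc17a6, 3 in Neurod2 and 2 in Neurod6. Of all 32851 annotated windows of this length 66.2% hold at least 1, with a mean of 1.16 per window. The form CAGATG, searched on both strands and itself an E-box, occurs once in the Neurod2 window, in none of the other 3, and in 14.4% of all windows. Of all 9 genes 6 have an E-box in this window, and those of Rorb, Fezf2 and Bcl11b hold none. Rorb and Cux2 also have 2 annotated starts each, and only the window of the more upstream was searched.

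Depth and tissue content differed between libraries. The deposited values resolved into whole-number counts, called reads here, of 17237421 to 35246703 per Top2b-low library and 16963067 to 28629911 per wild-type library, and the lowest value of any of the 9 genes rested on 231 reads. Top2b itself had 2152, 2314 and 1965 normalised counts in the Top2b-low libraries, against 3160, 3014 and 2485 in wild type. Replicate 3 of each genotype has a library name beginning with N22, and in these 2 libraries markers of the cerebellum were nearly absent although the label is whole left brain: Gabra6, a GABA receptor subunit of granule cells, stood at 0.592 and 0.711 normalised counts there, against 2020 to 2348 in the other 4. All 15 granule cell markers were lower in the N22 libraries in limma with genotype in the model, and the 14 Hox genes of the hindbrain list summed to 0 there. Outside N22 these Hox genes summed to 109.5 and 95.9 in Top2b-low and to 205 and 338 in wild-type libraries. The Hox sums were thus lower in Top2b-low among the 4 libraries outside N22, though the 2 wild-type sums lay apart and only 5 of the 14 genes averaged 10 or more. The granule cell markers did not follow, with 9 higher and 6 lower in Top2b-low outside N22. The part of these markers in the values of the 9 genes was not tested. Because of the N22 libraries, genotype differences are given over all 6 libraries, within the 4 outside N22 and within the N22 pair. In bulk tissue, fewer cells of a type and less RNA per cell cannot be told apart.

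The genes of cortical excitatory neurons were somewhat higher in Top2b-low mice and the subcortical transporter gene was lower, and no difference passed the test. Of the 9 genes 8 had a positive log2 fold change (Top2b-low over wild type, on log2 of the normalised count plus 1) and 1, Slc17a6, a negative one. Their median was 0.16, against −0.0021 for all 17391 tested genes, 49.4% of which had a positive value. None of the 9 passed limma's test (Benjamini-Hochberg adjusted p = 0.99997 for each), and none had an unadjusted p under 0.05 in this fit, which has no term for the N22 libraries. Of all tested genes limma called 0.0%, and 262 genes or 1.51% reached 0.05 without adjustment. That is below the share which this threshold gives when no gene differs, so it does not measure how small the genotype difference is. On the reads, edgeR and DESeq2 also called 0, and 250 and 166 genes reached 0.05 without adjustment. With the replicate number as a block or a term for the N22 libraries, limma and edgeR called 0 genes. With the N22 term limma gave unadjusted p of 0.0037 for Slc17a7, 0.023 for Neurod2, 0.0032 for Neurod6, 0.0098 for Tbr1 and 0.0024 for Slc17a6. It gave 0.082 to 0.89 for Bcl11b, Rorb, Cux2 and Fezf2, and 1011 of all 17391 genes reached 0.05. With the replicate block the same genes and Bcl11b, at 0.047, were under 0.05 in limma, beside 1169 of all genes. The data did not show replicates 1 and 2 to be matched by number, so only the N22 part of this block has a basis. DESeq2 called 15 genes with either term, 0.0863% of those tested, and none of the 9 was among them. Top2b, the targeted gene, was among these calls, with adjusted p of 0.00062 with the replicate block and 3.15e-05 with the N22 term. Without these terms limma did not call it (log2 fold change −0.42, unadjusted p = 0.0063, adjusted p = 0.99997), and neither did edgeR or DESeq2. With these terms limma and edgeR also did not call Top2b. A missing call in those fits therefore does not show that a gene is unchanged.

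**Figure D1:**
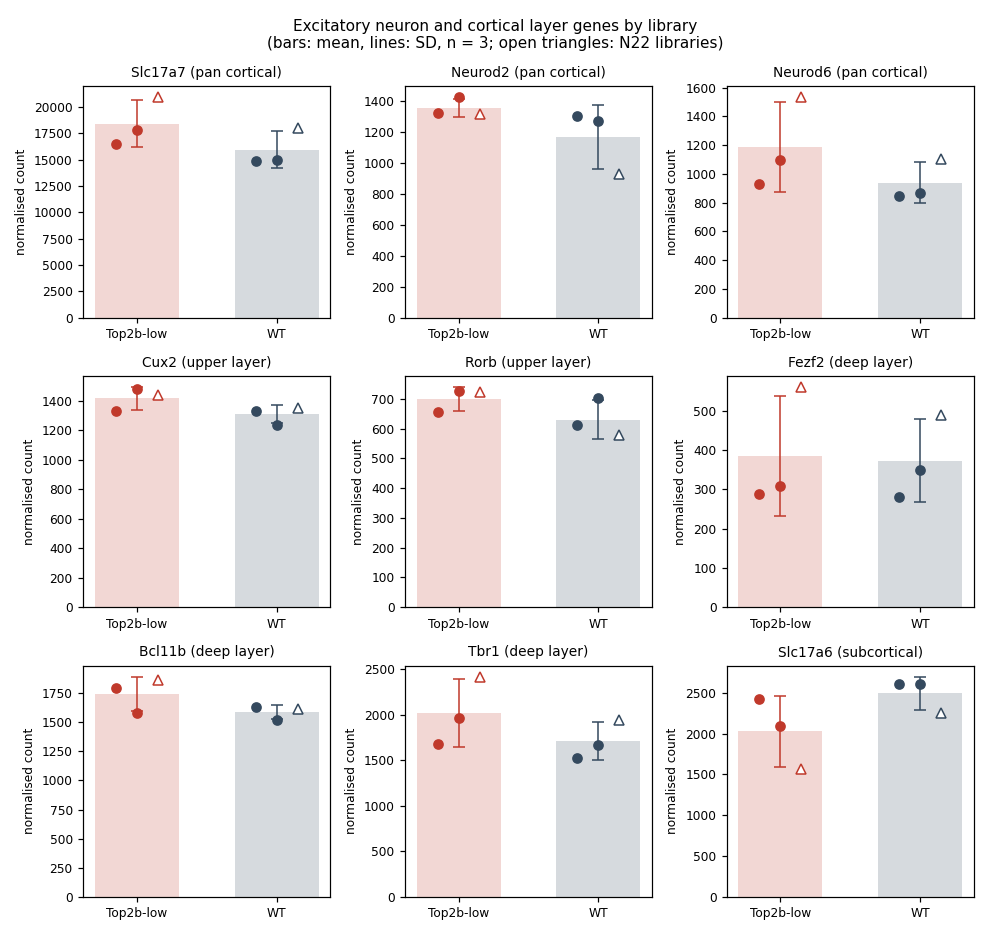
Normalised count of each of the 9 genes in every library, with Top2b-low left of wild type (WT). Bars are means, lines are SD (n = 3 each), and open triangles mark the N22 libraries. Slc17a7 runs from 16503 to 20904 in Top2b-low libraries and from 14903 to 17969 in wild type, and Slc17a6 from 1564 to 2422 in Top2b-low libraries and from 2259 to 2613 in wild type.

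Slc17a7 had 16503, 17842 and 20904 normalised counts in Top2b-low replicates 1 to 3, against 14903, 14944 and 17969 in wild-type replicates 1 to 3. The highest library of each genotype was the N22 one, and the groups overlapped because wild-type replicate 3 lay above Top2b-low replicates 1 and 2. The means were 18416 ± 2256 in Top2b-low and 15939 ± 1758 in wild-type mice (SD, n = 3 each), a difference of 15.5%, with a log2 fold change of 0.21 (SE 0.12, 95% interval −0.06 to 0.48) and no adjusted call. Its exact permutation p (two-sided, over the 6 libraries) was 0.3, and 3 against 3 cannot go below 0.1. Within the 4 libraries outside N22 the gene was 14.98% higher, without overlap of the genotypes. Within the N22 pair, which holds 1 library per genotype, it was 16.3% higher, and 8.68% of all tested genes lay above in both sets. With the replicate block the SE was 0.05 and the limma adjusted p 0.473. Without Top2b-low replicate 3 the log2 fold change was 0.11.

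Neurod6, a basic helix-loop-helix factor of postmitotic excitatory neurons, had the largest positive difference of the 9 over all 6 libraries, while Neurod2 exceeded it in the N22 pair and without Top2b-low replicate 3, wild-type replicate 1 or wild-type replicate 2. It counted 927, 1095 and 1533 in Top2b-low libraries, against 847, 867 and 1106 in wild type. The N22 library was again the highest of each genotype, and wild-type replicate 3 lay above 2 of the Top2b-low libraries. The means of 1185 ± 313 in Top2b-low and 939.9 ± 144 in wild-type mice (SD, n = 3 each) gave a log2 fold change of 0.31 (SE 0.19), with a difference of 17.5% outside N22 and 38.6% in the N22 pair. Without Top2b-low replicate 3 the log2 fold change was 0.11.

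Neurod2, a close relative that acts in the differentiation and synapse formation of cortical neurons, was the only one of the 9 whose genotypes did not overlap over all 6 libraries. It counted 1323, 1423 and 1317 in Top2b-low libraries, against 1302, 1272 and 925 in wild type. The lowest Top2b-low and the highest wild-type library thus had 1317 and 1302 normalised counts, and wild-type replicate 3 stood apart below. The means were 1354 ± 59.5 in Top2b-low and 1166 ± 209 in wild-type mice (SD, n = 3 each). The log2 fold change was 0.23 (SE 0.14), the exact permutation p was 0.1, the smallest possible, and without wild-type replicate 3 the log2 fold change was 0.07. It was 6.59% higher outside N22 and 42.3% higher within the N22 pair. Among all tested genes, 2.7% had all Top2b-low libraries above all wild-type ones and 3.04% had all below, 5.74% in either direction. A limma term for the genotype difference in N22 against that outside it gave 0.42 log2 units (SE 0.13, adjusted p = 0.997). The N22 set holds 1 library per genotype, so this SE rests on the spread between the other 4 libraries, and the N22 pair has no replicate check of its own. This term called 0.023% of tested genes and none of the 9.

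The upper-layer genes differed little. Cux2, a homeodomain factor of layers 2 to 4 that shapes dendrites and spines, counted 1330, 1481 and 1436 in Top2b-low libraries, against 1332, 1238 and 1354 in wild type, and the groups overlapped through Top2b-low replicate 1. Its means were 1416 ± 77.5 in Top2b-low and 1308 ± 61.6 in wild-type mice (SD, n = 3 each), a difference of 8.23%, with a log2 fold change of 0.11 and a 95% interval of −0.08 to 0.30. Rorb, the nuclear receptor that marks layer 4, counted 655, 725 and 721 in Top2b-low libraries, against 611, 702 and 577 in wild type. Its groups overlapped as well, with 700.2 ± 39.5 in Top2b-low and 630.1 ± 64.4 in wild-type mice (SD, n = 3 each), a log2 fold change of 0.16 and an interval of −0.09 to 0.40. For Cux2 the difference was 9.27% outside N22 and 6.08% in the N22 pair, and for Rorb 5.18% and 24.8%.

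Of the deep-layer genes Tbr1 differed most and Fezf2 least. Tbr1, the T-box factor of layer 6 corticothalamic neurons, counted 1681, 1961 and 2419 in Top2b-low libraries, against 1527, 1662 and 1944 in wild type. Each same-numbered pair was higher in the Top2b-low mouse, while the groups overlapped. The means were 2020 ± 372 in Top2b-low and 1711 ± 213 in wild-type mice (SD, n = 3 each), the log2 fold change 0.23 (SE 0.15), and the difference 14.0% outside N22 and 24.4% in the N22 pair. Without Top2b-low replicate 3 the log2 fold change was 0.09.

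Bcl11b, a zinc finger factor needed for the corticospinal projections of layer 5, counted 1792, 1577 and 1863 in Top2b-low libraries, against 1631, 1523 and 1611 in wild type. The groups overlapped through Top2b-low replicate 2, and the log2 fold change was 0.13 (SE 0.09, interval −0.07 to 0.34), with 0.09 outside N22 and 0.21 in the N22 pair. Bcl11b is also strong in striatal projection neurons, and among 16 striatal markers 10 stood higher and 6 lower by genotype, with a median log2 fold change of 0.09, summed levels of 24610 to 29008 in Top2b-low libraries and 22450 to 26848 in wild type, and no marker at 0. Their part in the Bcl11b value was not tested. Fezf2, the factor that specifies subcortically projecting layer 5 neurons, counted 288, 307 and 560 in Top2b-low libraries, against 281, 350 and 489 in wild type. The 2 high values were the N22 libraries, and the log2 fold change was 0.02 with an interval of −0.67 to 0.71, the widest of the 9. The sign turned to −0.07 in the 4 libraries outside N22 and to −0.29 without Top2b-low replicate 3, −0.17 without wild-type replicate 1 and −0.01 without wild-type replicate 2.

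Slc17a6 was the only one of the 9 that was lower in Top2b-low mice. It counted 2422, 2093 and 1564 in Top2b-low libraries, against 2613, 2613 and 2259 in wild type. Top2b-low replicates 2 and 3 lay below all wild-type libraries and replicate 1 between them. The means were 2026 ± 433 in Top2b-low and 2495 ± 204 in wild-type mice (SD, n = 3 each), a difference of −18.8%. This is a log2 fold change of −0.32 (SE 0.16, 95% interval −0.69 to 0.05), with an exact permutation p of 0.2. The difference was −13.8% outside N22, without overlap of the genotypes, and −30.7% in the N22 pair, which holds 1 library per genotype. Of all tested genes 8.97% lay below in both sets. The hindbrain Hox genes were also lower in Top2b-low libraries outside N22, and their part in the Slc17a6 value was not tested. With the replicate block the SE of Slc17a6 was 0.08 and the limma adjusted p 0.473, and without Top2b-low replicate 3 its log2 fold change was −0.14. The lowest adjusted p of the 9 genes under any setting was 0.142, for Slc17a7 and Slc17a6 in DESeq2 with the N22 term.

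**Figure D2:**
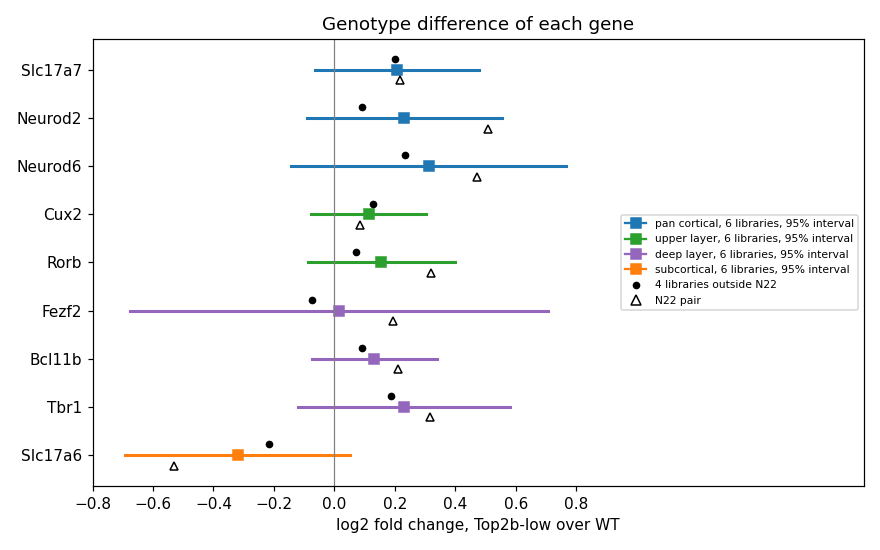
Log2 fold change of each gene, Top2b-low over WT, over all 6 libraries with its 95% interval (squares and lines, coloured by class), over the 4 libraries outside N22 (dots) and in the N22 pair (open triangles). All 9 intervals include 0, the values run from −0.32 for Slc17a6 to 0.31 for Neurod6, and the sign differs between the library sets for Fezf2 alone.

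Within each of the 2 library sets, which is a looser condition than separation over all 6 libraries, 5 of the 9 genes separated by genotype. Slc17a7, Neurod2, Neurod6 and Tbr1 were higher in every Top2b-low library than in every wild-type library both outside N22 and within the N22 pair, and Slc17a6 was lower in both. Among all tested genes 8.68% lay above and 8.97% below in this way. Over same-numbered pairs, 6 of the 9 genes were higher in the Top2b-low mouse of all 3 pairs and 1, Slc17a6, was lower in all 3, beside 14.0% of all tested genes in each direction. The exceptions were Cux2, whose values in pair 1 were 1330 in the Top2b-low and 1332 in the wild-type mouse, and Fezf2, which was lower in pair 2. Pairs 1 and 2 follow the replicate numbers of the titles, and the data did not show these mice to be matched. The count within library sets was chosen after the values were seen, and the genes were not a random draw, so neither count is a test.

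The balance of the 2 vesicular transporter genes lay further toward Slc17a7 in Top2b-low mice. The ratio of Slc17a7 to Slc17a6 normalised counts, without correction for length, was 6.81, 8.52 and 13.4 in Top2b-low libraries, against 5.70, 5.72 and 7.95 in wild type. All 3 Top2b-low values lay above the 2 wild-type libraries outside N22, but wild-type replicate 3, at 7.95, lay above Top2b-low replicate 1. On the log2 scale the means were 3.20 ± 0.49 in Top2b-low and 2.67 ± 0.28 in wild-type mice (SD, n = 3 each), a difference of 0.53 log2 units. The difference was 0.26, 0.58 and 0.75 in same-numbered pairs 1 to 3. It was 0.42 outside N22, and 0.26 without Top2b-low replicate 3. The mean of Slc17a7, Neurod2 and Neurod6 minus Slc17a6 differed by 0.57 log2 units, with 0.62 ± 0.50 in Top2b-low and 0.05 ± 0.15 in wild-type libraries. No p is given for these scores, since their members were chosen with earlier results of these data known.

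The balance of upper and deep layers differed by less than the spread between replicates. The mean log2 level of Cux2 and Rorb minus that of Fezf2, Bcl11b and Tbr1 was −0.03, 0.08 and −0.42 in Top2b-low libraries, against 0.02, −0.04 and −0.38 in wild type. The 2 low values are the N22 libraries, one of each genotype. The average was −0.13 ± 0.26 in Top2b-low and −0.13 ± 0.22 in wild-type libraries (SD, n = 3 each), a difference of 0.0085 log2 units, and pairs 1 to 3 gave −0.06, 0.12 and −0.04. Leaving out Rorb gave −0.01, leaving out Bcl11b 0.01 and leaving out Fezf2 −0.05, and 20 upper-layer against 31 deep-layer genes from the wider lists gave −0.02. Those wider lists share genes with the lists of cerebellar cells. Without 1 of the replicates the difference ran from −0.12 to 0.16.

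**Figure D3:**
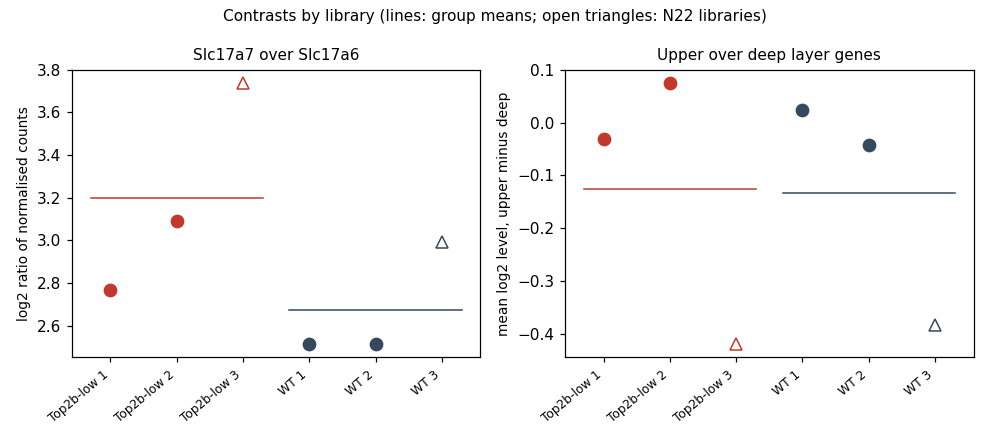
Log2 ratio of Slc17a7 to Slc17a6 (left) and mean log2 level of upper-layer minus deep-layer genes (right) in each library, Top2b-low left of WT. Lines are group means and open triangles the N22 libraries. The transporter ratio averages 3.20 in Top2b-low and 2.67 in wild-type libraries, while the layer contrast averages −0.13 in both and is low in both N22 libraries.

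Several of these genes differed more between the N22 and the other libraries than between genotypes. With genotype in the model, limma found Fezf2 higher in the N22 libraries by 0.78 log2 units (adjusted p = 0.00103), with 560 and 489 normalised counts there and 281 to 350 in the other 4. Neurod6 was higher by 0.49 (adjusted p = 0.00296), Tbr1 by 0.35 (adjusted p = 0.00850) and Slc17a7 by 0.28 (adjusted p = 0.00694). Slc17a6 was lower by a log2 difference of −0.37 (adjusted p = 0.0101). Thus 4 of the 9 rose and 1 fell, where 11.3% of all tested genes were called higher and 16.7% lower, 28.0% in all. Cux2, Rorb and Bcl11b differed by 0.05, −0.06 and 0.09 and did not pass, with adjusted p of 0.385 to 0.682. Neurod2 was at −0.27 (adjusted p = 0.0522), unlike its relative Neurod6, and edgeR and DESeq2 gave it adjusted p of 0.0695 and 0.0513. Among all tested genes edgeR called 29.5% and DESeq2 23.5% between N22 and the other libraries, and they placed each of the 9 on the same side as limma. Neurod1, another member of the family and listed both with the cortical excitatory and with the granule cell genes, counted 246 and 177 in the N22 libraries and 1672 to 2066 in the other 4. The summed level of the 15 granule cell markers was 7204 and 8130 in the N22 libraries and 29410 to 35017 in the other 4, with no marker at 0 in every library, and its part in the values of Neurod2 and Slc17a7 was not tested.

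**Figure D4:**
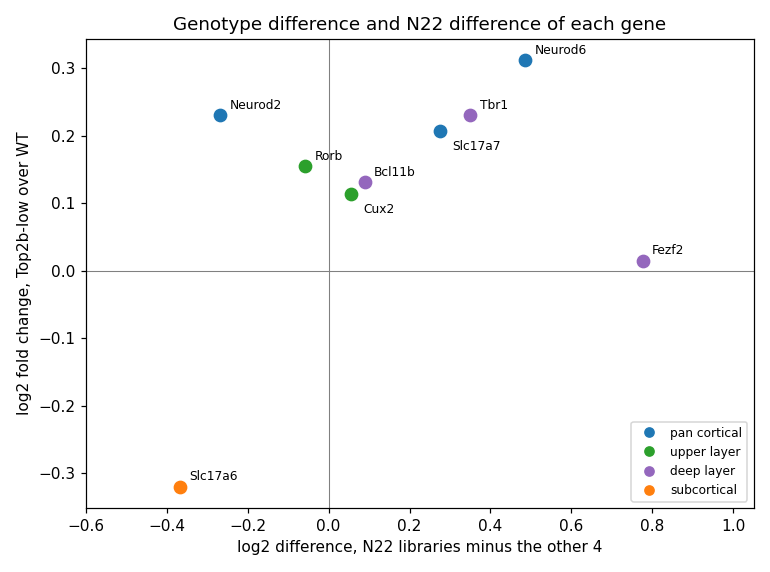
Genotype difference (vertical axis, log2 fold change of Top2b-low over WT) against the difference between the N22 libraries and the other 4 (horizontal axis, log2) for the 9 genes, coloured by class. Fezf2 stands at 0.78 on the horizontal and 0.02 on the vertical axis, Slc17a6 is below 0 on both, and Neurod2 and Rorb lie left of 0 and above it.

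Set per kilobase of exon (GENCODE vM21 exon lengths), which allows levels of different genes to be compared, Slc17a7 was far above the rest at 3415 ± 418 normalised counts per kb in Top2b-low and 2956 ± 326 in wild-type mice (SD, n = 3 each). Neurod6 had 551 ± 146 in Top2b-low and 437 ± 67.0 in wild-type mice, and Neurod2 had 431 ± 18.9 in Top2b-low and 371 ± 66.7 in wild type. Slc17a6 had 375 ± 80.1 in Top2b-low and 462 ± 37.9 in wild type, and Tbr1 368 ± 67.9 in Top2b-low and 312 ± 38.8 in wild type. Neighbours in the order of these 4 did not differ beyond their spread. Slc17a6 led the 4 in wild type, while Neurod6 and Neurod2 stood above it in Top2b-low mice. Bcl11b stood below them, at 215 ± 18.4 in Top2b-low and 196 ± 7.11 in wild type. Cux2 (140 ± 7.69 in Top2b-low, 130 ± 6.11 in wild type) and Fezf2 (126 ± 49.9 in Top2b-low, 122 ± 34.9 in wild type) did not differ beyond their spread. Rorb was lowest, at 63.2 ± 3.56 in Top2b-low and 56.9 ± 5.81 in wild type.

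Of 19 tested genes of cortical excitatory neurons 18 were higher in Top2b-low mice, with a median log2 fold change of 0.21, and none passed limma's test. Without the 4 that belong to the 9 genes it was 14 of 15 with a median of 0.18, the exception being the transcription factor Bhlhe22 at −0.0090. In the 4 libraries outside N22 it was 16 of 19 with a median of 0.10, and in the N22 pair 19 of 19 with 0.32. The activity-dependent factor Mef2c averaged 9328 ± 1116 normalised counts in Top2b-low and 7946 ± 706 in wild-type mice (SD, n = 3 each), a log2 fold change of 0.23. Camk2a, the calcium/calmodulin kinase subunit of forebrain excitatory neurons, had 0.29, the LIM protein gene Lmo3 0.18 and the dendritic phosphoprotein gene Arpp21 0.22. This list overlaps the glutamatergic genes already known to be higher in these data, so its direction is not independent evidence.

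The lists of single layers did not move as one, and they are not limited to cortical genes. Calb1 of the upper-layer list is also on the Purkinje cell list, and Etv1 of the layer 5 list on the granule cell list. In the N22 libraries Calb1 was lower by a log2 difference of −1.03 and Etv1 by −0.83. Their part in the layer lists was not tested. Of 20 upper-layer genes 12 were higher and 8 lower, with a median of 0.02 and none called. The semaphorin receptor gene Plxnd1 had a log2 fold change of 0.24, the netrin receptor Unc5d −0.13 and the adhesion gene Mdga1 −0.18. Of 15 layer 5 genes 8 were higher and 7 lower, with a median of 0.01 and none called, and 1 gene in each direction without overlap of the genotypes, beside 5.74% of all tested genes in either direction. Fam84b, at 0.32, had 282, 331 and 317 normalised counts in Top2b-low and 261, 272 and 215 in wild-type libraries. Tcerg1l, at −0.19, had 203, 188 and 189 in Top2b-low and 215, 221 and 226 in wild-type libraries. Of 16 genes of layers 6 and 6b 13 were higher, with a median of 0.13 and none called. Sox5, which acts in deep-layer neuron identity, had 832 ± 42.2 normalised counts in Top2b-low and 722 ± 5.08 in wild-type mice (SD, n = 3 each), and the complexin gene Cplx3, a subplate marker, 0.47. In the N22 pair, however, 8 of the 16 were higher and 8 lower.

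**Figure D5:**
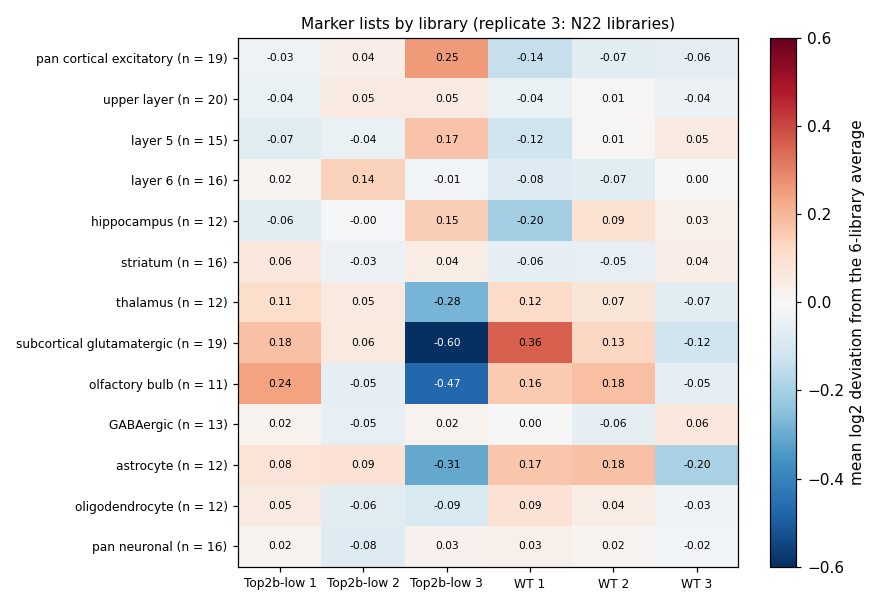
Mean log2 deviation of each marker list from its average over the 6 libraries, by library, with Top2b-low left of WT and n the number of tested genes. Top2b-low replicate 3 is at 0.25 for cortical excitatory genes and −0.60 for the list labelled subcortical glutamatergic, which also holds genes of other cell types. The layer and pan neuronal lists stay within 0.17 of their average.

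Most subcortical genes were lower in Top2b-low mice, and the lowest levels were those of Top2b-low replicate 3. Of 19 tested genes of the subcortical list 14 were lower and 5 higher, with a median of −0.05 and none called, but outside N22 10 were lower and 9 higher. In the N22 libraries 9 of the 19 were called lower, and 4 of the 19, Zic1 and Calb2 among them, are also on the granule cell list. Without those 4, a count added after seeing the data, 11 of 15 were lower by genotype, and 8 of 15 outside N22. Their part in the list's difference was not tested. The mean deviation was 0.18, 0.06 and −0.60 in Top2b-low replicates 1 to 3, against 0.36, 0.13 and −0.12 in wild-type replicates 1 to 3. Nkx2-1, a factor of the hypothalamus, counted 29.5, 13.4 and 13.0 in Top2b-low libraries, against 61.9, 55.1 and 65.4 in wild type (log2 fold change −1.75, limma adjusted p = 0.99997). Lmx1b, a factor of serotonergic and dopaminergic neurons, was at −1.02, with −0.64 outside N22 and −1.77 in the N22 pair. It counted 25.8, 24.3 and 5.32 in Top2b-low libraries, against 32.8, 47.6 and 20.6 in wild type, and the groups overlapped. The calcium-binding protein gene Calb2 was at −0.46, with −0.18 outside N22 and −1.02 in the N22 pair. Calb2 was also lower in the N22 libraries than in the other 4, by a log2 difference of −1.13 (limma adjusted p = 0.000575). So were Zic1, at −2.23, and Lmx1b, at −1.47 (limma adjusted p = 0.0107). Of 12 thalamic genes 9 were lower, with a median of −0.06, and 6 were lower outside N22. The third vesicular transporter gene, Slc17a8, had a log2 fold change of −0.03.

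Of 16 pan neuronal genes 7 were higher and 9 lower, with a median of −0.03, and set relative to their mean level the log2 fold change was 0.23 for Slc17a7 and −0.30 for Slc17a6. Of 13 inhibitory neuron genes 7 were higher (median 0.03), and of 12 oligodendrocyte genes 11 were lower (median −0.09). Of 12 astrocyte genes 8 were lower (median −0.08), led by Agt, the angiotensinogen gene, at −0.75 and the connexin gene Gjb6 at −0.29. Of 12 hippocampal genes 8 were higher (median 0.03), of 11 olfactory bulb genes 8 were lower (median −0.16), of 12 Purkinje cell genes 6 were higher and 6 lower (median 0.02), of 12 microglial genes 7 were lower (median −0.0080) and of 12 endothelial genes 8 were higher (median 0.10). None of these genes passed limma's test, and their part in the differences of the 9 genes was not tested.

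Among 11581 tested genes averaging 100 or more normalised counts, those whose values over the 6 libraries followed each of the 9 most closely were found by the root mean square difference of centred log2 levels. For Slc17a7 these were Rassf3 (0.029 log2 units) and B3gat1 (0.031), and for Slc17a6 Fstl5 (0.039) and Vat1l (0.040). Bmp3 came first for both Neurod6 (0.062) and Tbr1 (0.043), followed by Scube1 (0.075) and Fam81a (0.044). Neurod2 was followed by Hs3st1 (0.054) and Hes1 (0.060), Cux2 by Cacng7 (0.024) and Ldlrad4 (0.025), and Rorb by Cdh12 (0.035) and Fzd8 (0.037). Bcl11b was closest to Lpcat2 (0.025) and Prps2 (0.027). Fezf2 was closest to Ulk4 (0.053) and Nfkb2 (0.087), both of which were high in the N22 libraries. Vat1l counted 2435, 2186 and 1485 in Top2b-low libraries, against 2620, 2608 and 2252 in wild type, which is the order of Slc17a6 in the Top2b-low libraries. With 6 libraries and many genes, close matches describe these libraries only.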

How the data were processed

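Polyadenylated RNA of 6 left brains was sequenced from stranded libraries, per the labels' protocols. The authors deposited 1 table of normalised counts per gene, a signal in which gene counts had been divided by a size factor per library. The submitters' processing notes name RSEM and mm39; the RSEM version, aligner, annotation and use of strand are not given there. All values (100.0%, tolerance 1e-06 reads) were whole multiples of what 1 read is worth in their library, so reads were recovered, and the factors equalled DESeq2's. Symbols came from GENCODE vM21 (51498 of 78298 identifiers, 99.4% of reads in the library with the lowest share). Groups and replicate numbers came from titles. The series text counts mice per genotype.

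Genes with a mean of at least 10 were compared on log2(normalised count + 1) with limma 3.58.1 (intensity trend, two-sided) in R 4.3.3 and Benjamini-Hochberg adjustment at 0.05. Fold changes on this scale understate low genes. edgeR 4.0.16 (quasi-likelihood) and DESeq2 1.42.0 were run on the reads. Counts of genes within library sets, the interaction term and the contrast without Fezf2 were added after seeing the data. The limma script was checked on simulated counts with fold changes far larger than those of the 9 genes, less spread and no N22 difference. That check does not show the power of the test here. The members, lists and rules were chosen with earlier results of these data known. Named were the 9 genes, Top2b, up to 4 genes per list by smallest unadjusted p (a few that this rule picks are not reported here) and 2 nearest genes by pattern. Neurod1, Bhlhe22, Gabra6, Slc17a8, Calb1 and Etv1 were chosen after their values were seen. Lratd2, Tafa1 and Ctgf were not matched under these names, 2 of them being found as Fam84b and Fam19a1 and the third as Ccn2.

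Same-numbered libraries of the 2 genotypes deviated together from their group means, with correlations of 0.33, 0.35 and 0.68 for numbers 1 to 3, each over 0.1, and the numbers were therefore treated as pairs. Libraries of different number also correlated for numbers 1 and 2 (0.24 and 0.37), and 0.37 is above the same-number values 0.33 and 0.35. The data thus did not show numbers 1 and 2 to be matched, and the pairing rests on N22. No pair of libraries within a genotype was alike to within counting noise (chi-square per degree of freedom 4.00 to 33.7).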

Additional observations from a re-analysis of the deposited data

How the results depend on the processing

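Of the 9 genes, 8 kept the sign of their log2 fold change under all 21 alternatives run (pseudocount 0.5, no filter, a mean of at least 50, TMM, scaling to pan neuronal genes, edgeR, DESeq2, the replicate block, the N22 term, the library sets and each replicate left out), and none passed the threshold where a test could be had, which the N22 pair, with 1 library per genotype, does not give. Fezf2 was reversed at −0.0746 outside N22 and ran from −0.29 to 0.23 with 1 replicate left out, and the cause was not tested. The other ranges with 1 replicate left out were 0.11 to 0.30 for Slc17a7, 0.07 to 0.32 for Neurod2, 0.11 to 0.47 for Neurod6, 0.09 to 0.36 for Tbr1, 0.07 to 0.16 for Cux2, 0.09 to 0.24 for Rorb, 0.08 to 0.20 for Bcl11b and −0.46 to −0.14 for Slc17a6. Leaving out either replicate 3 leaves the other N22 library without a counterpart. The count of called genes, 0 in limma, was 15 in DESeq2 with the replicate block and 15 with the N22 term, and ran from 0 to 1 with 1 replicate left out, and the cause of these differences was not tested. With the replicate block limma and edgeR still called 0 genes (1169 and 1168 reached 0.05 unadjusted), and no call of the 9 genes changed. The transporter contrast ran from 0.26 to 0.74 and the pan cortical contrast from 0.30 to 0.79 with 1 replicate left out, and in the N22 pair they were 0.75 and 0.93. The mean difference over the replicate block equals the plain one (0.53, 0.57 and 0.0085 for the layer contrast). Genes called between N22 and the other libraries numbered 4864 in limma, 5132 in edgeR and 4083 in DESeq2, and for the 9 genes all 3 tools fell on the same side of the threshold.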
